A study of Mus musculus with 20 samples.

Results

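A group of 10 heat shock proteins and co-chaperones were followed in the hearts of mice with and without MuRF1, a ubiquitin ligase of muscle whose gene is Trim63. They were the Hsp70 proteins Hspa1a, Hspa1b and Hspa8, their partners Hsph1, Dnajb1 and Bag3, the Hsp90 protein Hsp90aa1, the small heat shock protein Hspb1, and the mitochondrial chaperonins Hspd1 and Hspe1. Every array probe whose gene name or accession belonged to 1 of these 10 genes was taken, which gave 17 of the 41174 probes. They covered 9 of the 10 genes, since no probe carried the name or accession of Hspa1b. All 9 were among the 14567 genes tested.

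Heat shock proteins bind unfolded stretches of other proteins and help them fold, stay soluble or be degraded. Hsp70 works in cycles of ATP hydrolysis and nucleotide exchange that co-chaperones drive, and it hands some clients on to Hsp90. Small heat shock proteins hold unfolding proteins without ATP, and Hspd1 with its lid Hspe1 folds proteins inside mitochondria. Under stress, heat shock factor 1 binds heat shock elements, runs of inverted 3-base units in the promoters of many of these genes, and raises their transcription. In the heart these proteins are known for protecting myofilaments and mitochondria during overload and ischaemia.

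The hearts came from MuRF1 -/- and MuRF1 +/+ mice of matched strain that ate chow for 8 weeks, or chow with 0.05% (w/w) fenofibrate, an activator of the nuclear receptor PPAR alpha, for 3 or 8 weeks. Each genotype is represented by 3 chow hearts, 4 hearts after 3 weeks of fenofibrate and 3 after 8 weeks, each on an array of its own. The series asks what MuRF1 does in the heart growth that fenofibrate brings about. Since every chow heart is from 8 weeks of diet, a control of the same duration is lacking at 3 weeks, and the 3-week and 8-week responses of a genotype share their chow hearts. The sample labels give no sex or litter of the hearts' donors, nor how MuRF1 was deleted. The series' design text differs from them: it gives the mice an age of 3 to 8 weeks, names both times for chow as well as for fenofibrate, and counts 2 to 3 hearts per condition. Weeks are used here as the sample labels give them, as weeks of diet, and age at harvest, which may differ between the 3-week and 8-week hearts, cannot be told apart from time on diet. Each value is the log2 ratio of heart RNA (Cy5) to a common reference of whole C57BL/6 pups of postnatal day 1 (Cy3), so a value compares a gene with itself in the pups, and values of different genes cannot be ranked.

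Trim63 was lower in every MuRF1 -/- heart (-1.19 to -0.49) than in any MuRF1 +/+ heart (0.79 to 2.85). On each array 34.0% to 51.9% of probes had heart signal well above background, and cardiomyocyte markers were above background on all 20 arrays except Ryr2, on 18. Separate from the rest on the leading principal components were 2 arrays, those of replicate 4 at 3 weeks in MuRF1 -/- and of replicate 2 at 8 weeks in MuRF1 +/+. The arrays lay on 5 slides, told apart by their scan, and the within-slide differences given below each set 1 heart against 1 heart on the same slide. The Y-linked transcripts Ddx3y and Eif2s3y were both above background in all chow hearts (3 of 3 in each genotype) and in no 3-week heart (0 of 4 in each). At 8 weeks both were above background in 2 of 3 MuRF1 -/- hearts and in 0 of 3 MuRF1 +/+ hearts. Differences of the fenofibrate groups from chow therefore coincide, in MuRF1 +/+ and at 3 weeks in MuRF1 -/-, with a difference in Y-linked transcripts. So, in part, do those of MuRF1 -/- hearts at 8 weeks from chow and from 3 weeks, and those between the genotypes at 8 weeks. The difference between the genotypes' 8-week responses coincides with one in Y-linked transcripts too. Xist, a transcript of the X chromosome, ran at 3 weeks from -0.20 to 0.19 in MuRF1 -/- and from -0.50 to -0.0033 in MuRF1 +/+ hearts. In the same order it ran at 8 weeks from -4.05 to -2.72 and -2.70 to -0.90, and on chow from -4.13 to -3.49 and -4.24 to -3.87. The 9 tested probes were above background on 20 of 20 arrays and none was saturated.

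Only some of these genes differed by diet and time, and not in one direction. A gene was called where the limma adjusted p (Benjamini-Hochberg over all 14567 genes) was under 0.05. At 3 weeks in MuRF1 -/- hearts 0 of 9 genes were called against chow, with 3 at an unadjusted p under 0.05, although 14.4% of all genes rose and 12.1% fell. At 3 weeks in MuRF1 +/+ hearts, Hspa8 and Hsph1 rose and 0 fell, where 12.0% of all genes rose and 12.3% fell. After 8 weeks in MuRF1 -/- hearts 0 of 9 were called by limma, with 1 at an unadjusted p under 0.05, where 0.858% of all genes rose and 0.975% fell. In MuRF1 -/- hearts 5479 of all 14567 genes had an unadjusted p under 0.05 at 3 weeks and 1846 at 8 weeks. After 8 weeks in MuRF1 +/+ hearts, 2 of 9 rose (Hspa8 and Hspb1) and 1 fell (Hspd1), where 5.22% of all genes rose and 8.76% fell. MuRF1 -/- hearts at 8 weeks had more Hspa1a and Bag3 and less Hsph1 and Hspd1 than at 3 weeks, where 13.5% of all genes were higher and 18.0% lower. MuRF1 +/+ hearts at 8 weeks had more Hspb1 and less Hspd1 than at 3 weeks, where 7.91% of all genes were higher and 9.69% lower. These are whole hearts, so a change of RNA per cell and a change in the number of cells that hold the RNA cannot be told apart. With 9 genes tested, counts of 1 or 2 lie near these background shares and show nothing particular to the chaperones.

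Over the 9 genes the median log2 difference from chow was -0.057 at 3 weeks in MuRF1 -/- hearts, against -0.0075 over all genes, and 0.14 at 3 weeks in MuRF1 +/+ hearts, against 0.010 over all genes. At 8 weeks it was -0.035 in MuRF1 -/- hearts (all genes -0.0066) and 0.19 in MuRF1 +/+ hearts (all genes 0.028). The plot of differences shows the spread behind these medians.

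Marker levels of other cells also differed between several of these groups, given here as the range over hearts of a list's mean log2 ratio, for the lists whose hearts did not overlap. On each array 10 of 10 endothelial markers were above background, 9 or 10 of 10 for fibroblasts and for cardiomyocytes, 6 or 7 of 7 for smooth muscle and pericytes, 4 to 7 of 8 for leukocytes, 4 or 5 of 6 for adipocytes and 5 of 5 for atrium. At 3 weeks in MuRF1 -/- hearts, endothelial markers lay at 0.69 to 1.09, against 0.38 to 0.59 on chow, and fibroblast markers at -2.23 to -1.75, against -2.74 to -2.27 on chow. At 3 weeks in MuRF1 +/+ hearts, where Hspa8 and Hsph1 rose, endothelial markers lay at 0.79 to 0.99, against 0.45 to 0.51 on chow, and fibroblast markers at -2.19 to -1.88, against -2.67 to -2.52. Adipocyte markers lay there at -1.999 to -1.32, against -2.25 to -2.21 on chow, and atrial markers at -1.13 to -0.87, against -1.63 to -1.42. At 8 weeks in MuRF1 -/- hearts, smooth muscle markers lay at -1.23 to -1.12, against -1.07 to -0.58 on chow. At 8 weeks in MuRF1 +/+ hearts, where Hspa8 and Hspb1 rose and Hspd1 fell, endothelial markers lay at 0.69 to 1.90, against 0.45 to 0.51 on chow, cardiomyocyte markers at 2.75 to 2.88, against 2.52 to 2.64, and adipocyte markers at -2.16 to -1.11, against -2.25 to -2.21. In MuRF1 -/- hearts at 8 against 3 weeks, where Hspa1a and Bag3 rose and Hsph1 and Hspd1 fell, endothelial markers lay at 0.40 to 0.51, against 0.69 to 1.09, and fibroblast markers at -2.88 to -2.73, against -2.23 to -1.75. Smooth muscle markers lay there at -1.23 to -1.12, against -0.91 to -0.60, and leukocyte markers at -0.42 to -0.30, against -0.17 to -0.022. In MuRF1 +/+ hearts at 8 against 3 weeks the hearts of these 7 lists overlapped. Cd3e of T cells and Lep of adipocytes were above background on 0 arrays. The part of these cells in the results was not tested.

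With the 6 groups ordered by their mean, hearts of neighbouring groups overlapped for most genes. The share of all genes with gaps between neighbouring groups was not counted. Hspa8, Hsph1, Dnajb1 and Bag3 had no gap between neighbours. Hspa1a had one gap in this order, since the 8-week MuRF1 +/+ hearts all lay above the MuRF1 +/+ chow hearts, while MuRF1 -/- hearts on chow and at 8 weeks lay on both sides of it. Hspb1 had one above which only the 8-week MuRF1 +/+ hearts lay, by a narrow margin (lowest -0.345, against -0.348 for the highest 8-week MuRF1 -/- heart). Hsp90aa1 had one between the 8-week MuRF1 -/- hearts and the MuRF1 +/+ chow hearts below them, where 1 MuRF1 -/- chow heart lay too. Hspe1 had one between the 8-week hearts of both genotypes and all other hearts, also narrow (0.0879 against 0.0894). Hspd1 had gaps between the 8-week hearts and the MuRF1 -/- chow hearts, and between these and the MuRF1 +/+ chow hearts. The MuRF1 +/+ chow hearts overlapped with the MuRF1 -/- 3-week hearts, through replicate 3 of these (0.075), and lay below all MuRF1 +/+ 3-week hearts.

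**Figure D1:**
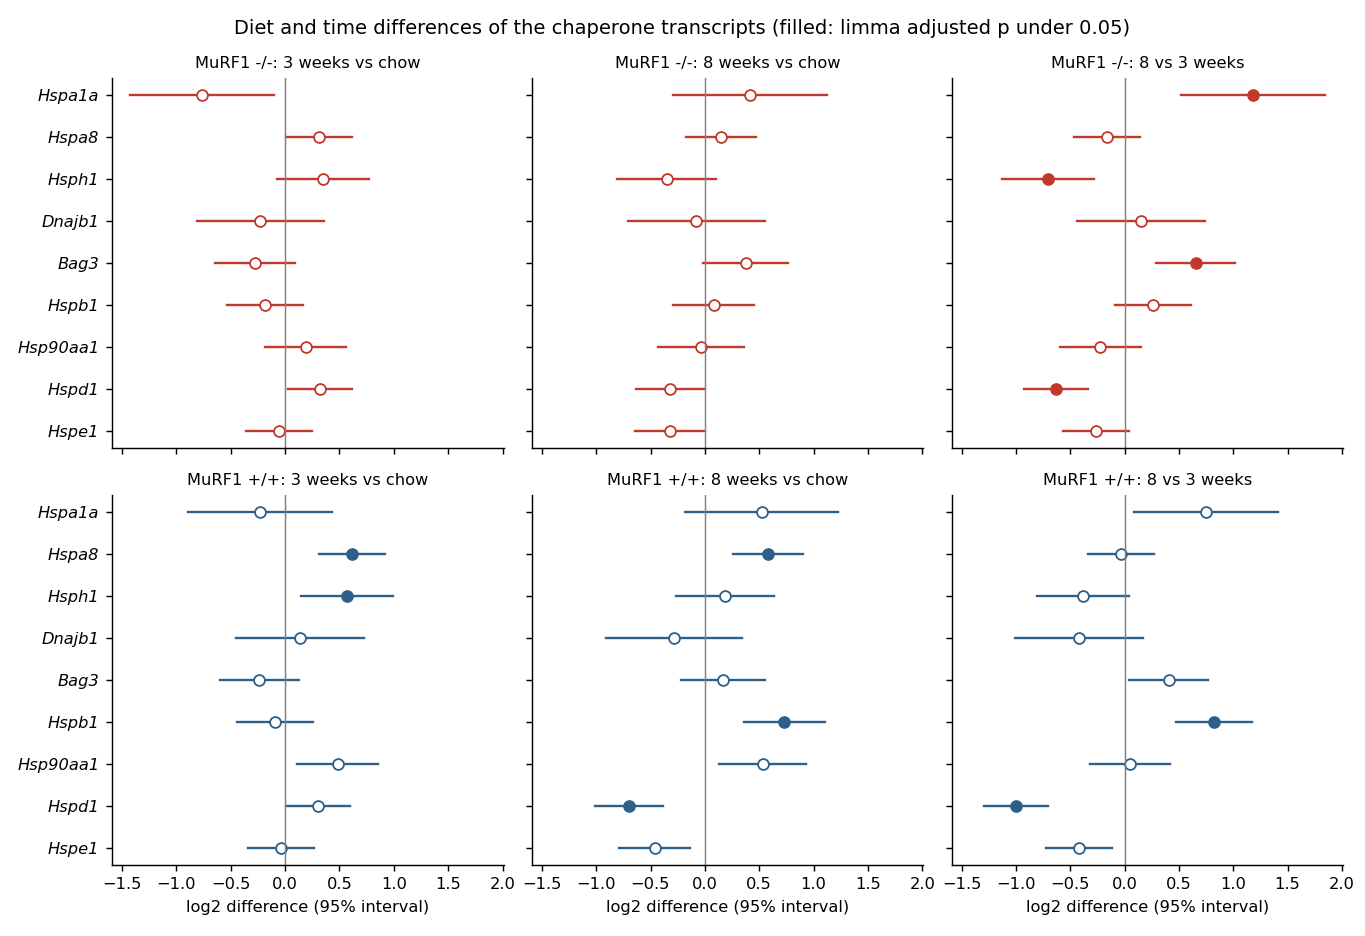
Log2 differences (points) with 95% intervals from limma (lines) for the 9 tested genes; MuRF1 -/- comparisons are in the upper row, MuRF1 +/+ below, and filled points passed an adjusted p of 0.05. Filled points lie at both signs, and Hspd1 is filled at a negative value in both 8 against 3 week panels.

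**Figure D2:**
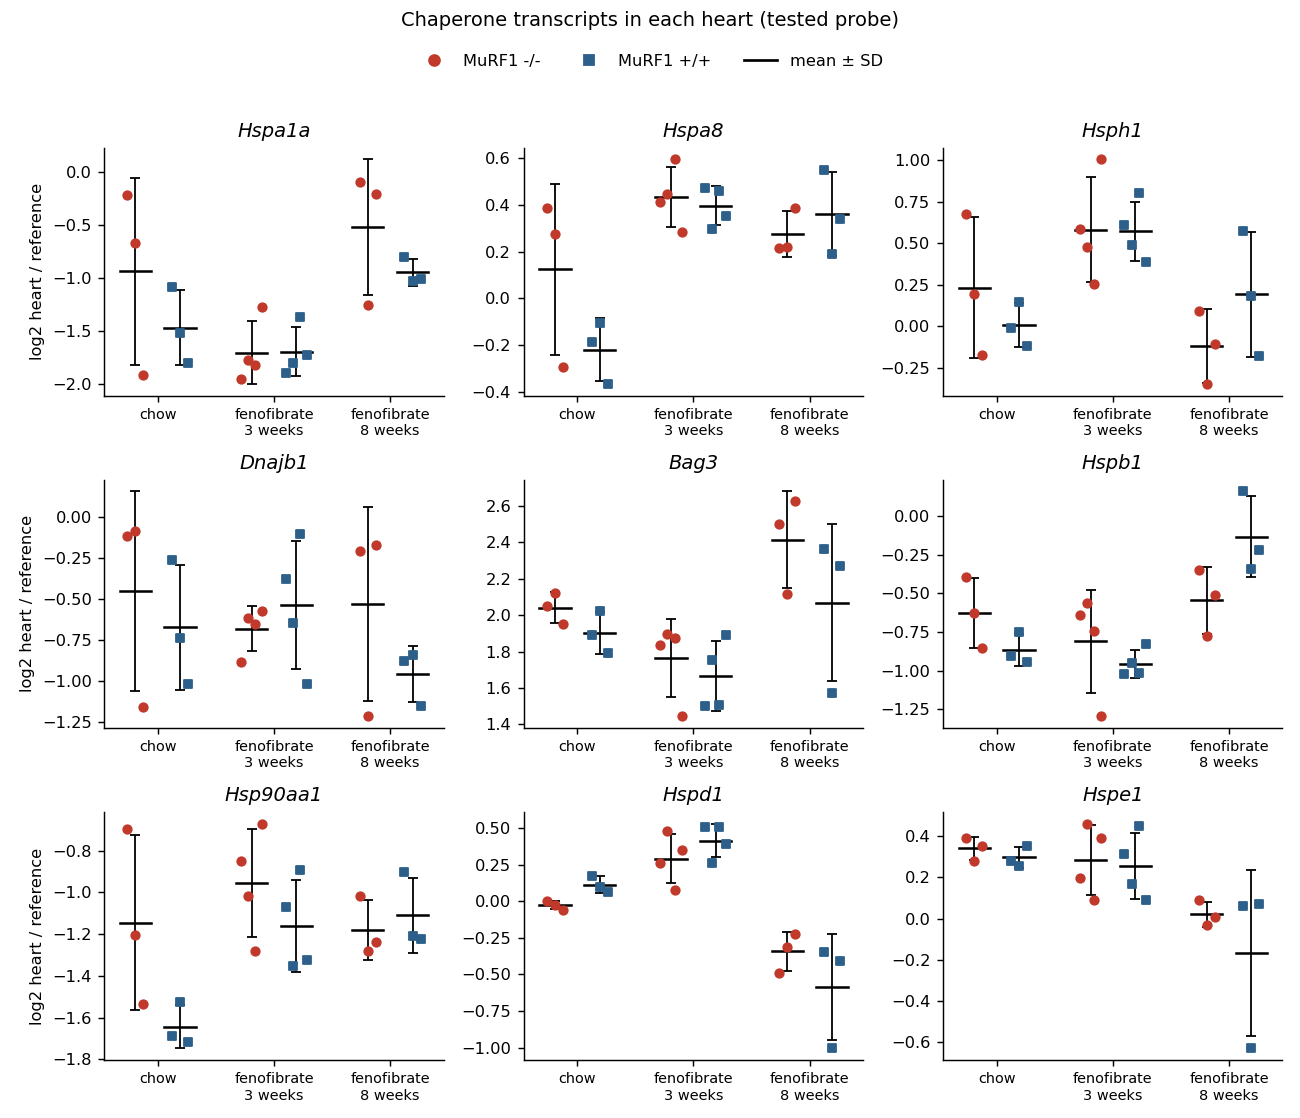
Log2 ratio of heart over reference (vertical axes, a scale of its own in each panel) for each heart by diet, with MuRF1 -/- hearts as circles and MuRF1 +/+ hearts as squares; lines and bars are means ± SD of 3 or 4 hearts. Hspd1 at 8 weeks lies below all chow and 3-week hearts in both genotypes, and Hspa1a and Dnajb1 spread most among MuRF1 -/- hearts on chow and at 8 weeks.

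Hspa1a and Hspa1b encode the stress-inducible Hsp70, and in the mouse the genes lie next to each other on chromosome 17. Hspa1a on chow stood at -0.22, -0.68 and -1.92 in MuRF1 -/- hearts and at -1.09, -1.51 and -1.80 in MuRF1 +/+ hearts. At 3 weeks, Hspa1a values were -1.95, -1.77, -1.81 and -1.28 in MuRF1 -/- hearts and -1.90, -1.80, -1.37 and -1.72 in MuRF1 +/+ hearts. At 8 weeks, Hspa1a values were -0.10, -1.25 and -0.21 in MuRF1 -/- hearts and -0.80, -1.03 and -1.01 in MuRF1 +/+ hearts. Among the MuRF1 -/- animals, replicates 1 and 2 on chow and replicates 1 and 3 at 8 weeks were far above the remaining heart of their group, which lay among the 3-week hearts on chow and just above them at 8 weeks. Hspa1a was higher at 8 than at 3 weeks in MuRF1 -/- hearts, -0.52 ± 0.64 (SD, n = 3) against -1.70 ± 0.30 (SD, n = 4), a 2.27-fold difference (log2 1.18 ± 0.32, limma adjusted p = 0.00808), with no overlap of the groups. Within single slides it was 0.52 and 1.07, and the adjusted p ran from 0.000846 to 0.410 over 38 alternatives, 36 of them past the threshold. In MuRF1 +/+ hearts the same difference was 0.75 ± 0.32 and did not pass (adjusted p = 0.111), except in 5 alternatives, among them that without replicate 3 of the MuRF1 -/- chow group (adjusted p = 0.0400). The MuRF1 -/- call was lost without replicate 1 of the 8-week group (log2 0.97, adjusted p = 0.0527) and when the Y-linked level entered as a covariate (log2 0.54, adjusted p = 0.410). The 8-week replicate with low Hspa1a, replicate 2, was also the one of its group without both Y-linked transcripts above background, and the part of that in the result was not tested. Against chow, Hspa1a differed by -0.77 ± 0.32 at 3 weeks in MuRF1 -/- hearts (adjusted p = 0.0822). That difference passed without replicate 3 of the MuRF1 -/- chow group (log2 -1.25, adjusted p = 0.00501) or without replicate 4 of the 3-week group (-0.91, adjusted p = 0.0490).

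Of the other 3 Hspa1a probes, 2 were above background on all 20 arrays and tracked the tested one over hearts (r = 0.988 for A_51_P117952 and 0.939 for A_52_P52803). A_51_P117952 gave 1.05 ± 0.28 for MuRF1 -/- hearts at 8 against 3 weeks (adjusted p = 0.00761 over all probes) and A_52_P52803, whose values spanned a narrower range, 0.31 ± 0.12 (adjusted p = 0.0704). A_52_P304902 was above background on 0 arrays. Whether these probes also bind the Hspa1b transcript was not tested, so the Hspa1a values may stem from Hspa1a, Hspa1b or both. The promoters of Hspa1a and Hspa1b are nearly the same, with 149 of the 150 bases before the start identical. The stretch is shown because it holds the pair of inverted units of a heat shock element. Capitals mark the match to GAANNTTC, 104 to 97 bases before the start (RefSeq, GRCm38.p6, chr17:34972157-34972306, minus strand, 5′ to 3′).
Hspa1a: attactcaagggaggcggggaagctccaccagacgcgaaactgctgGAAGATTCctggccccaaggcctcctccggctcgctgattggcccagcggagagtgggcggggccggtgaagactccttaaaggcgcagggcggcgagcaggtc

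Hspa8 is the constitutive Hsp70 of the cytosol, which folds new proteins and strips clathrin from vesicles. Hspa8 on chow stood at 0.39, 0.28 and -0.29 in MuRF1 -/- hearts and at -0.18, -0.11 and -0.37 in MuRF1 +/+ hearts. At 3 weeks, Hspa8 values were 0.41, 0.45, 0.59 and 0.28 in MuRF1 -/- hearts and 0.47, 0.30, 0.46 and 0.35 in MuRF1 +/+ hearts. At 8 weeks, Hspa8 values were 0.21, 0.22 and 0.39 in MuRF1 -/- hearts and 0.55, 0.19 and 0.34 in MuRF1 +/+ hearts. Every fenofibrate heart of both genotypes lay above every MuRF1 +/+ chow heart, and 2 of the 3 MuRF1 -/- chow hearts lay among the fenofibrate hearts. In MuRF1 -/- hearts Hspa8 differed from chow by 0.31 ± 0.14 at 3 weeks (adjusted p = 0.124, or 0.0472 without replicate 1 of the MuRF1 -/- chow group) and by 0.15 ± 0.15 at 8 weeks (adjusted p = 0.836). In MuRF1 +/+ hearts Hspa8 averaged 0.40 ± 0.084 (SD, n = 4) at 3 weeks and 0.36 ± 0.18 (SD, n = 3) at 8 weeks, against -0.22 ± 0.13 (SD, n = 3) on chow. It was 1.53-fold higher at 3 weeks (log2 0.61 ± 0.14, limma adjusted p = 0.00479) and 1.49-fold higher at 8 weeks (0.58 ± 0.15, adjusted p = 0.0191). Within single slides that held both groups the differences were 0.40 and 0.66 at 3 weeks and 0.56 and 0.66 at 8 weeks. The adjusted p ran from 4.71e-05 to 0.771 over 38 alternatives, 33 of them past the threshold, at 3 weeks, and from 0.000194 to 0.754 over 39 alternatives, 30 of them past the threshold, at 8 weeks. The difference of the responses between genotypes did not pass, at -0.31 ± 0.20 at 3 weeks and -0.43 ± 0.22 at 8 weeks (adjusted p = 0.322).

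Another Hspa8 probe, A_52_P12877, was also above background on all 20 arrays but hardly followed the tested one (r = 0.111), and it gave -0.36 ± 0.42 at 3 weeks and -0.31 ± 0.45 at 8 weeks in MuRF1 +/+ hearts. With the mean over both probes neither call stood (log2 0.13, adjusted p = 0.771 at 3 weeks, and 0.14, adjusted p = 0.754 at 8 weeks). The 8-week call was also lost without replicate 1 (adjusted p = 0.0522) or replicate 3 (adjusted p = 0.104) of the MuRF1 +/+ chow group, and both calls were lost with the Y-linked covariate (adjusted p = 0.317 at 3 weeks and 0.301 at 8 weeks). Both were lost too with the Agilent ratios, the heart channel alone and the deposited matrix. Further losses of the 8-week call came with only the groups compared and without the 3-week arrays. The transcript most like the tested Hspa8 probe over the 20 hearts was LOC641192 (r = 0.893), which the array files describe as similar to heat shock protein 8.

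Hsph1, the Hsp110 protein, speeds the release of nucleotide from Hsp70 and keeps unfolded proteins soluble. Hsph1 on chow stood at 0.67, 0.20 and -0.18 in MuRF1 -/- hearts and at -0.011, 0.15 and -0.12 in MuRF1 +/+ hearts. At 3 weeks, Hsph1 values were 0.59, 0.48, 0.26 and 1.01 in MuRF1 -/- hearts and 0.61, 0.49, 0.80 and 0.39 in MuRF1 +/+ hearts. At 8 weeks, Hsph1 values were 0.094, -0.35 and -0.11 in MuRF1 -/- hearts and 0.57, 0.18 and -0.18 in MuRF1 +/+ hearts. The 3-week hearts were the high ones in both genotypes, but 1 MuRF1 -/- chow heart and 1 MuRF1 +/+ heart at 8 weeks lay among them. At 8 against 3 weeks in MuRF1 -/- hearts Hsph1 fell 1.63-fold, to -0.12 ± 0.22 (SD, n = 3) against 0.58 ± 0.31 (SD, n = 4) (log2 -0.70 ± 0.20, limma adjusted p = 0.0129), with no overlap and within-slide differences of -1.11 and -0.83. The adjusted p ran from 0.00245 to 0.0721 over 38 alternatives, 37 of them past the threshold. The call was lost without replicate 2 of the 8-week MuRF1 -/- group (-0.59, adjusted p = 0.0721). In MuRF1 +/+ hearts the same contrast gave -0.38 ± 0.20 (adjusted p = 0.211).

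The 3-week difference of Hsph1 from chow in MuRF1 -/- hearts was 0.35 ± 0.20 (adjusted p = 0.219). At 3 weeks Hsph1 was 1.48-fold above chow in MuRF1 +/+ hearts (log2 0.57 ± 0.20) with an adjusted p of 0.0488, just inside the threshold, and the within-slide differences were 0.34 and 0.62. The adjusted p ran from 0.00136 to 0.169 over 38 alternatives, 14 of them past the threshold. Leaving out any 1 of 13 hearts moved it past 0.05, to between 0.0523 and 0.169: each of the 4 MuRF1 +/+ hearts at 3 weeks, each of the 3 on chow, each of the 3 MuRF1 -/- hearts at 8 weeks, replicates 1 and 2 of the MuRF1 -/- 3-week group and replicate 2 of the MuRF1 -/- chow group. The difference between the genotypes' 3-week responses (MuRF1 -/- minus MuRF1 +/+) was -0.22 ± 0.29, with a 95% interval of -0.81 to 0.38. Over the 20 hearts the transcript most like Hsph1 was Flnc (r = 0.876), which encodes filamin C of the Z-disc. An element of 3 inverted units lies just inside the transcribed part of Hsph1, 37 to 49 bases after the first annotated start, and a pair of units lies 33 to 26 bases before it. They are shown as 30-base stretches with the matches to TTCNNGAANNTTC and TTCNNGAA in capitals (RefSeq, GRCm38.p6, minus strand, 5′ to 3′, chr5:149636287-149636316 and chr5:149636352-149636381).
Hsph1, after the start: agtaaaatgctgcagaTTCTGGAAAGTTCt
Hsph1, before the start: tgggtagaatctTTCTCGAAggctcgagaa

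Dnajb1 is the Hsp40 partner that loads clients onto Hsp70 and stimulates its ATPase. Dnajb1 on chow stood at -0.11, -0.085 and -1.16 in MuRF1 -/- hearts and at -0.26, -0.74 and -1.02 in MuRF1 +/+ hearts. At 3 weeks, Dnajb1 values were -0.88, -0.62, -0.65 and -0.57 in MuRF1 -/- hearts and -0.38, -0.65, -0.099 and -1.02 in MuRF1 +/+ hearts. At 8 weeks, Dnajb1 values were -0.20, -1.22 and -0.17 in MuRF1 -/- hearts and -0.88, -0.84 and -1.15 in MuRF1 +/+ hearts. The groups overlapped almost throughout, and by limma 0 of the 6 diet and time comparisons passed at the tested probe, with 0 at an unadjusted p under 0.05. Its differences ran from -0.42 ± 0.28 (8 against 3 weeks, MuRF1 +/+, adjusted p = 0.325) to 0.15 ± 0.28 (8 against 3 weeks, MuRF1 -/-, adjusted p = 0.712). The MuRF1 -/- hearts that were high in Hspa1a were also high in Dnajb1, and the correlation of the pair was 0.526 over all 20 hearts and 0.861 after each group's mean was taken out, as a description of values that share arrays. A dimmer Dnajb1 probe, A_52_P171663, was above background on 19 arrays. This probe was, in MuRF1 -/- hearts, lower at 3 weeks than on chow (log2 -0.38 ± 0.13, adjusted p = 0.0321 over all probes) and higher at 8 than at 3 weeks (0.47 ± 0.13, adjusted p = 0.00832). The corresponding values of the tested probe were -0.23 ± 0.28 and 0.15 ± 0.28, so the probes differ in whether they pass and share the direction, and their correlation over hearts was 0.601.

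**Figure D3:**
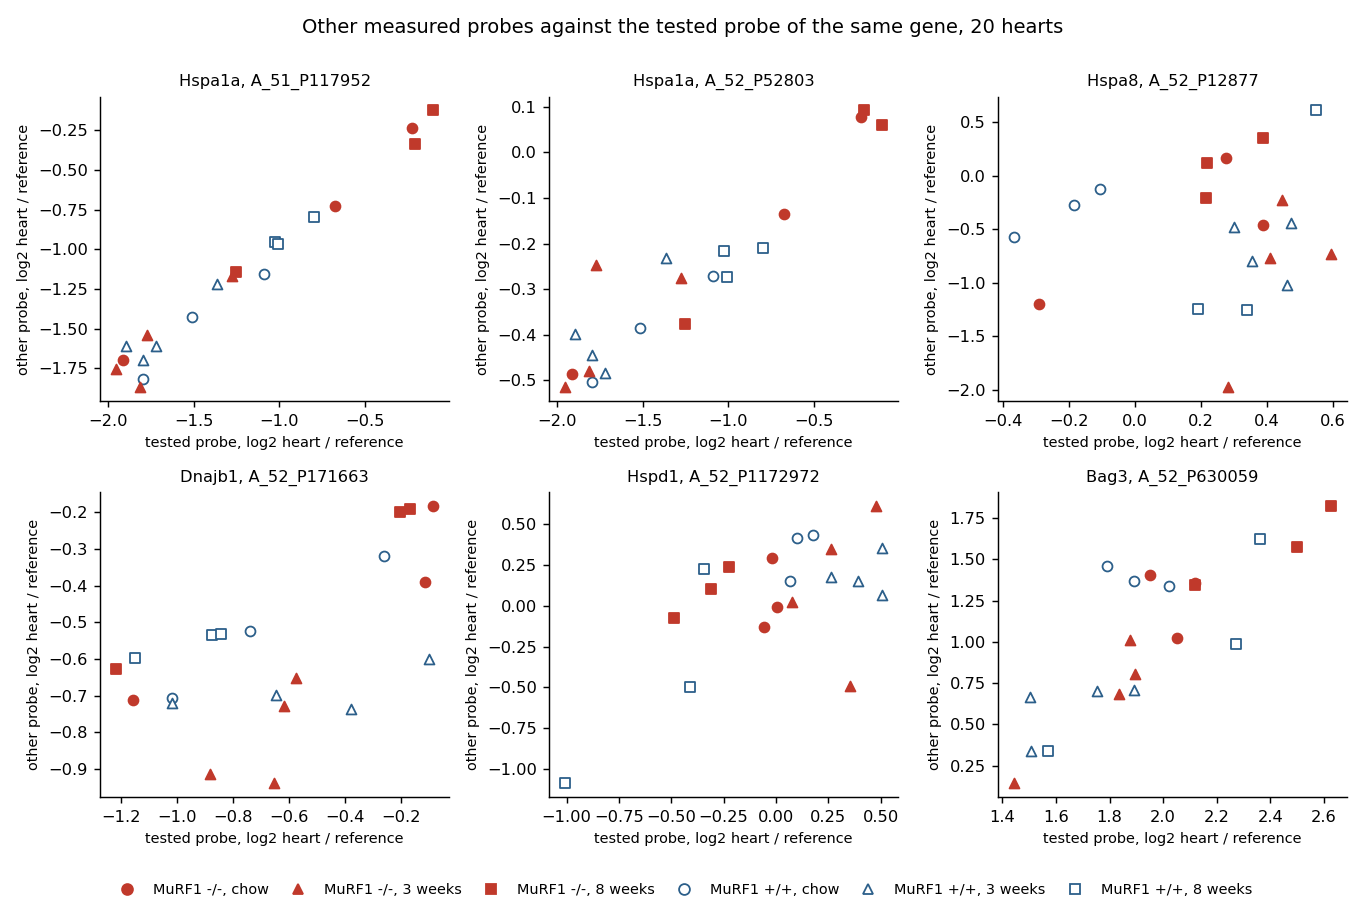
Each panel sets another probe of a gene (vertical axis) against its tested probe (horizontal axis), both as log2 heart over reference, with 1 point per heart. The 2 other Hspa1a probes lie along a line, the other Hspa8 probe scatters without one, and the Dnajb1, Hspd1 and Bag3 probes lie between.

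Bag3 releases nucleotide from Hsp70, binds small heat shock proteins and steers damaged filamin and other Z-disc proteins to autophagy in muscle. Bag3 on chow stood at 2.05, 2.12 and 1.95 in MuRF1 -/- hearts and at 1.89, 2.02 and 1.79 in MuRF1 +/+ hearts. At 3 weeks, Bag3 values were 1.83, 1.90, 1.88 and 1.44 in MuRF1 -/- hearts and 1.50, 1.75, 1.51 and 1.89 in MuRF1 +/+ hearts. At 8 weeks, Bag3 values were 2.50, 2.12 and 2.63 in MuRF1 -/- hearts and 2.36, 1.57 and 2.27 in MuRF1 +/+ hearts. By group mean the 3-week hearts were lowest and the MuRF1 -/- hearts at 8 weeks highest, with overlap between neighbouring groups. Replicate 2 of the 8-week MuRF1 +/+ group, an array that stood apart, was as low as the 3-week hearts. Bag3 was 1.57-fold higher at 8 than at 3 weeks in MuRF1 -/- hearts, 2.41 ± 0.26 (SD, n = 3) against 1.76 ± 0.21 (SD, n = 4) (log2 0.65 ± 0.17, limma adjusted p = 0.00802), with no overlap. Within single slides it was 0.22 and 1.18, and the adjusted p ran from 0.000804 to 0.169 over 38 alternatives, 36 of them past the threshold. Without replicate 3 of the 8-week MuRF1 -/- group it no longer passed (0.55, adjusted p = 0.0547), nor did it with the Y-linked covariate (0.54, adjusted p = 0.169). In MuRF1 +/+ hearts the contrast was 0.40 ± 0.17 (adjusted p = 0.119) and passed without the array that stood apart (log2 0.65, adjusted p = 0.00550). The other probe, A_52_P630059, correlated with the tested one at 0.830. It gave 0.92 ± 0.22 for the MuRF1 -/- contrast (adjusted p = 0.00451 over all probes) and was also lower at 3 weeks than on chow in MuRF1 +/+ hearts (-0.79 ± 0.22, adjusted p = 0.0154), where the tested probe gave -0.24 ± 0.17. Slc27a1, a fatty acid transporter, was the transcript most like Bag3 over the 20 hearts (r = 0.868).

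Hsp90aa1 is the inducible cytosolic Hsp90, which matures kinases and steroid receptors. Hsp90aa1 on chow stood at -0.70, -1.20 and -1.53 in MuRF1 -/- hearts and at -1.69, -1.52 and -1.72 in MuRF1 +/+ hearts. At 3 weeks, Hsp90aa1 values were -0.85, -1.02, -1.28 and -0.67 in MuRF1 -/- hearts and -1.07, -1.35, -0.89 and -1.33 in MuRF1 +/+ hearts. At 8 weeks, Hsp90aa1 values were -1.02, -1.28 and -1.24 in MuRF1 -/- hearts and -0.90, -1.21 and -1.22 in MuRF1 +/+ hearts. All 3 MuRF1 +/+ chow hearts lay below every MuRF1 +/+ fenofibrate heart, yet neither diet difference passed. In MuRF1 -/- hearts the differences from chow were 0.19 ± 0.18 at 3 weeks (adjusted p = 0.467) and -0.035 ± 0.19 at 8 weeks (adjusted p = 0.988). MuRF1 +/+ hearts differed by 0.48 ± 0.18 at 3 weeks (adjusted p = 0.0551) and 0.53 ± 0.19 at 8 weeks (adjusted p = 0.0660), and within single slides the MuRF1 +/+ differences were 0.17 and 0.62 at 3 weeks and 0.51 and 0.62 at 8 weeks. All groups share one estimate of the spread, and leaving out a heart of another group was enough to move these values past the threshold. That was so without replicate 1 or 3 of the MuRF1 -/- chow group or replicate 4 of the MuRF1 -/- 3-week group (adjusted p = 0.0301 to 0.0419 at 3 weeks and 0.0402 to 0.0484 at 8 weeks). For the 3-week value it was also so without replicate 3 of the MuRF1 -/- 3-week group, or replicate 1 or 2 of the 8-week MuRF1 +/+ group (0.0437 to 0.0468). Hsp90aa1 and Hsph1 moved together from heart to heart, with a correlation of 0.742 over 20 hearts and 0.924 after group means were taken out, again as a description. Ccdc68 was the transcript most like Hsp90aa1 over the hearts (r = 0.808).

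**Figure D4:**
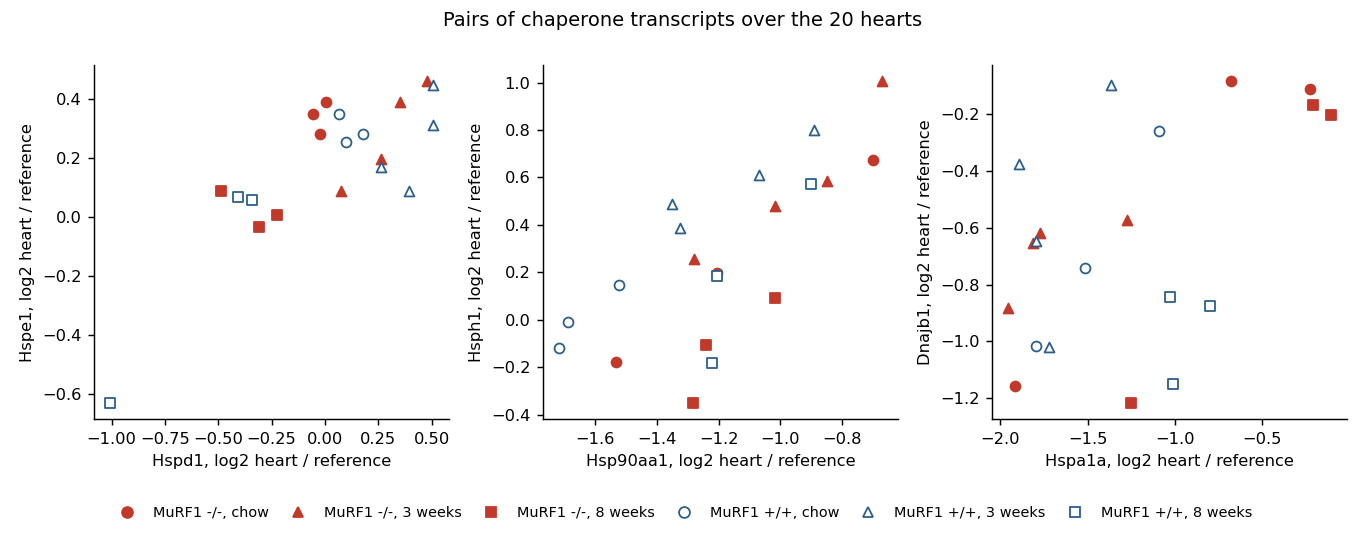
Each point is 1 heart, with log2 heart over reference of 2 genes on the axes; filled symbols are MuRF1 -/- hearts, open symbols MuRF1 +/+ hearts, and shapes give the diet. Hspd1 and Hspe1, and Hsp90aa1 and Hsph1, were largely high or low in the same hearts, with r of 0.803 and 0.742 over the 20 hearts. For Hspa1a and Dnajb1 r was 0.526, and the 8-week MuRF1 +/+ hearts were low in Dnajb1 (-1.15 to -0.84) but above MuRF1 +/+ chow hearts in Hspa1a (-1.03 to -0.80). Replicate 2 of the 8-week MuRF1 +/+ group is the lowest point of the chaperonin panel.

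Hspb1, mouse Hsp25, is an ATP-independent holder of unfolding proteins that also binds actin and, in muscle, titin. Hspb1 on chow stood at -0.40, -0.63 and -0.85 in MuRF1 -/- hearts and at -0.90, -0.75 and -0.95 in MuRF1 +/+ hearts. At 3 weeks, Hspb1 values were -0.64, -0.56, -0.74 and -1.30 in MuRF1 -/- hearts and -1.02, -0.95, -1.02 and -0.83 in MuRF1 +/+ hearts. At 8 weeks, Hspb1 values were -0.35, -0.78 and -0.51 in MuRF1 -/- hearts and 0.16, -0.34 and -0.22 in MuRF1 +/+ hearts. The 3 MuRF1 +/+ hearts at 8 weeks lay above all other MuRF1 +/+ hearts, and they alone included a value above 0. Hspb1 in MuRF1 -/- hearts differed from chow by 0.080 ± 0.18 at 8 weeks (adjusted p = 0.958) and from 3 weeks by 0.26 ± 0.17 (adjusted p = 0.243). Hspb1 was 1.66-fold higher at 8 weeks than on chow in MuRF1 +/+ hearts, -0.13 ± 0.26 (SD, n = 3) against -0.87 ± 0.10 (SD, n = 3) (log2 0.73 ± 0.18, limma adjusted p = 0.0120). It was 1.77-fold higher at 8 than at 3 weeks (0.82 ± 0.17, adjusted p = 0.00238). The within-slide differences were 0.60 and 0.91 against chow and 0.61 and 1.11 against 3 weeks. The adjusted p ran from 4.00e-05 to 0.219 over 39 alternatives, 32 of them past the threshold, against chow, and from 1.28e-05 to 0.0975 over 38 alternatives, 37 of them past the threshold, against 3 weeks. Without the 2 arrays that stood apart they were 0.84 (adjusted p = 0.00134) and 0.93 (adjusted p = 9.79e-05). The rise against chow was lost without replicate 3 of the MuRF1 +/+ chow group (log2 0.69, adjusted p = 0.0628) and with the Y-linked covariate (0.70, adjusted p = 0.211). It was also lost with the Agilent ratios, the heart channel alone, scaling between arrays, the deposited matrix (0.50, adjusted p = 0.219) and only the groups compared. The difference from 3 weeks was lost with the deposited matrix (0.58, adjusted p = 0.0975). The difference between 8 and 3 weeks, whose hearts all lacked both Y-linked transcripts above background, was 0.82 with the Y-linked covariate (adjusted p = 0.00346). Since these hearts were alike in Y-linked transcripts, the covariate could hardly change this value. Xist still differed between those groups, at -2.70 to -0.90 against -0.50 to -0.0033.

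The genotypes' 8-week responses of Hspb1 differed by -0.65 ± 0.25 (MuRF1 -/- minus MuRF1 +/+), with an unadjusted p of 0.0182 and an adjusted p of 0.244, so a difference in response was not shown. With array weights it was -0.63 and passed (limma adjusted p = 0.0125), where 19.6% of all genes were called. Efhd2, an actin-bundling calcium-binding protein, was the transcript most like Hspb1 (r = 0.869). Another Hspb1 probe, A_52_P88910, was above background on 0 arrays. The Hspb1 promoter is shown because it holds pairs of inverted units at 2 places, 117 to 110 and 97 to 90 bases before the start (RefSeq, GRCm38.p6, chr5:135887769-135887918, plus strand, 5′ to 3′, matches to GAANNTTC in capitals).
Hspb1: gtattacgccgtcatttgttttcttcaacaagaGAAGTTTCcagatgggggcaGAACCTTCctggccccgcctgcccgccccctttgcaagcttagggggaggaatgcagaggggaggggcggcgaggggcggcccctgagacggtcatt

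Hspd1, the barrel of the mitochondrial chaperonin, was called in 3 comparisons, more than any other of the 9 genes. Hspd1 on chow stood at 0.0025, -0.022 and -0.057 in MuRF1 -/- hearts and at 0.18, 0.098 and 0.067 in MuRF1 +/+ hearts. At 3 weeks, Hspd1 values were 0.26, 0.48, 0.075 and 0.35 in MuRF1 -/- hearts and 0.51, 0.26, 0.51 and 0.39 in MuRF1 +/+ hearts. At 8 weeks, Hspd1 values were -0.49, -0.31 and -0.23 in MuRF1 -/- hearts and -0.34, -1.01 and -0.41 in MuRF1 +/+ hearts. In both genotypes the order was 8 weeks lowest, chow between and 3 weeks highest, and the 8-week hearts did not overlap with chow or 3-week hearts. Hspd1 averaged in MuRF1 -/- hearts -0.025 ± 0.030 (SD, n = 3) on chow, 0.29 ± 0.17 (SD, n = 4) at 3 weeks and -0.34 ± 0.13 (SD, n = 3) at 8 weeks. In MuRF1 +/+ hearts it averaged 0.11 ± 0.057 (SD, n = 3), 0.42 ± 0.12 (SD, n = 4) and -0.59 ± 0.37 (SD, n = 3) at these stages. At 8 against 3 weeks it fell 1.55-fold in MuRF1 -/- hearts (log2 -0.63 ± 0.14, limma adjusted p = 0.00223) and 2.00-fold in MuRF1 +/+ hearts (-1.003 ± 0.14, adjusted p = 0.000128). Against chow at 8 weeks it differed by -0.32 ± 0.15 in MuRF1 -/- hearts and did not pass (adjusted p = 0.389), and it fell 1.62-fold in MuRF1 +/+ hearts (-0.70 ± 0.15, adjusted p = 0.00562). At 3 weeks the differences from chow were 0.32 ± 0.14 in MuRF1 -/- hearts (adjusted p = 0.104) and 0.30 ± 0.14 in MuRF1 +/+ hearts (adjusted p = 0.126). Both passed without replicate 2 of the 8-week MuRF1 +/+ group, an array that stood apart and a heart of neither comparison (adjusted p = 0.0208 and 0.0285).

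The fall between 3 and 8 weeks in MuRF1 +/+ hearts passed under all 38 alternatives run for it, with log2 differences of -1.30 to -0.79 and adjusted p from 6.28e-07 to 0.0186. The MuRF1 -/- fall had adjusted p from 4.05e-05 to 0.271 over 38 alternatives, 36 of them past the threshold, and the MuRF1 +/+ fall against chow from 5.20e-05 to 0.188 over 39 alternatives, 37 of them past the threshold. The MuRF1 -/- fall was lost with the heart channel alone (-0.32, adjusted p = 0.271) and with the mean over probes (-0.33, adjusted p = 0.162). The MuRF1 +/+ fall against chow was lost with the Y-linked covariate (-0.68, adjusted p = 0.188) and with only the groups compared (-0.70, adjusted p = 0.158). Without the 2 arrays that stood apart the fall between 3 and 8 weeks in MuRF1 +/+ hearts was -0.79 (adjusted p = 5.60e-05), and that against chow -0.49 (adjusted p = 0.0109). Within single slides the MuRF1 -/- hearts differed by -0.79 and -0.58 and the MuRF1 +/+ hearts by -0.80 and -0.61 between 8 and 3 weeks, and for MuRF1 +/+ hearts at 8 weeks against chow the differences were -1.07 and -0.44. A dimmer Hspd1 probe, A_52_P1172972, followed the tested one with r = 0.627. For MuRF1 +/+ hearts it gave -0.64 ± 0.24 between 8 and 3 weeks (adjusted p = 0.0822 over all probes) and -0.79 ± 0.26 against chow (adjusted p = 0.0539). For MuRF1 -/- hearts it gave -0.034 ± 0.24 between 8 and 3 weeks, so the MuRF1 -/- fall rests on the tested probe.

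Hspe1, the lid of the chaperonin, is encoded head to head with Hspd1. Hspe1 on chow stood at 0.39, 0.28 and 0.35 in MuRF1 -/- hearts and at 0.28, 0.26 and 0.35 in MuRF1 +/+ hearts. At 3 weeks, Hspe1 values were 0.20, 0.46, 0.089 and 0.39 in MuRF1 -/- hearts and 0.31, 0.17, 0.45 and 0.090 in MuRF1 +/+ hearts. At 8 weeks, Hspe1 values were 0.088, -0.032 and 0.0061 in MuRF1 -/- hearts and 0.060, -0.63 and 0.070 in MuRF1 +/+ hearts. The 8-week hearts were the lowest of each genotype here too, with replicate 3 of MuRF1 -/- and replicate 4 of MuRF1 +/+ at 3 weeks just above them. By limma 0 of the 6 diet and time comparisons passed, and 2 had an unadjusted p under 0.05. At 8 weeks Hspe1 differed from chow by -0.32 ± 0.16 in MuRF1 -/- hearts (adjusted p = 0.410) and by -0.46 ± 0.16 in MuRF1 +/+ hearts (adjusted p = 0.0531), and the 8-week hearts of neither genotype overlapped with chow. Between 8 and 3 weeks the differences were -0.26 ± 0.15 in MuRF1 -/- hearts (adjusted p = 0.178) and -0.42 ± 0.15 in MuRF1 +/+ hearts (adjusted p = 0.0517). The MuRF1 +/+ values lay near the threshold, and the 8-week difference from chow passed in 10 of 39 alternatives (adjusted p = 0.0149 to 0.0481 there), among them those without replicate 1 or 3 of the 8-week MuRF1 +/+ group or replicate 4 of the MuRF1 -/- 3-week group. The difference between 8 and 3 weeks passed in 11 of 38 (0.0140 to 0.0490), among them the same 3 and that without replicate 4 of the 3-week MuRF1 +/+ group. Without replicate 2 of the 8-week MuRF1 +/+ group, the array that stood apart and held the lowest Hspe1 value, the MuRF1 +/+ difference was -0.23 ± 0.12 (adjusted p = 0.291) against chow and -0.19 ± 0.11 (adjusted p = 0.267) against 3 weeks. The within-slide differences in MuRF1 +/+ hearts were -0.98 and -0.20 at 8 weeks against chow and -0.11 and -0.020 at 8 against 3 weeks. In MuRF1 -/- hearts the difference between 8 and 3 weeks passed without that array (adjusted p = 0.0442). Hspe1 and Hspd1 were correlated over the 20 hearts (r = 0.803, and 0.854 after group means were taken out), which describes values from the same arrays. The transcript most like Hspe1 was ENSMUST00000101240 (r = 0.971), which the array files describe as similar to Hsp10, while Hspd1 was most like Tsen15 (r = 0.923), a subunit of the tRNA splicing endonuclease.

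The stretch before the Hspe1 start is shown because it holds 4 inverted units in a row. It lies between the starts of the chaperonin genes for the second annotated start of Hspd1, and past the first. Capitals mark the overlapping matches to TTCNNGAANNTTC and GAANNTTCNNGAA, 89 to 72 bases before the Hspe1 start (RefSeq, GRCm38.p6, chr1:55087998-55088147, plus strand, 5′ to 3′). On the other strand the same element lies 144 to 127 bases before the second annotated start of Hspd1.
Hspe1: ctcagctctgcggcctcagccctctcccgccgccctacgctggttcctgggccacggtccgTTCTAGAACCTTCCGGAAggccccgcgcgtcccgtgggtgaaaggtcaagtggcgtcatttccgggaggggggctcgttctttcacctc

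Across RefSeq's promoter windows, which span 250 bases before to 50 after a start, 3 units in a row (GAANNTTCNNGAA or TTCNNGAANNTTC, each the other's reverse complement) occurred in 0.603% of 32851 windows. A pair of units (GAANNTTC or TTCNNGAA, each its own reverse complement, also counted inside every run of 3) occurred in 15.1%. Counted by gene, with a match in any of a gene's windows, the shares were 0.662% and 17.0% of 27025 genes. Windows were given for 8 of the 10 genes. A run of 3 was found for 3 of these 8, Hspd1, Hspe1 and Hsph1, and the chaperonin genes share theirs. A pair was found for 7 of the 8: these 3, Hspb1, Hspa1a, Hspa1b and Bag3. Neither was found in the windows of Dnajb1. Of the genes with a run of 3, Hspd1 was called lower in 3 comparisons, Hsph1 higher in 1 and lower in 1, and Hspe1 was called in 0.

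**Figure D5:**
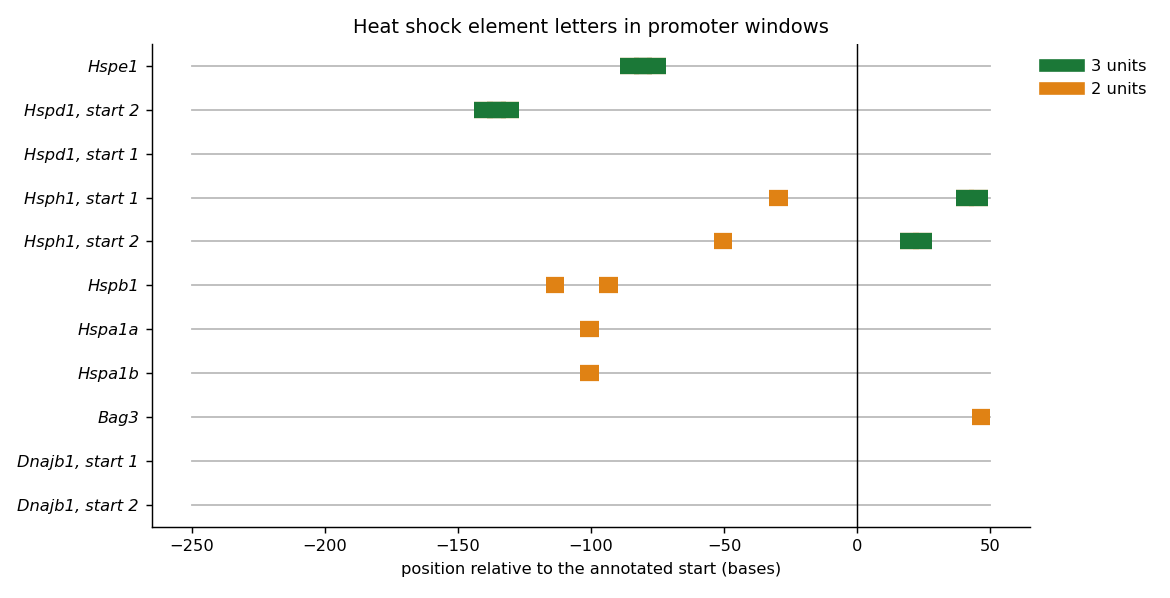
Position of heat shock element letters relative to the annotated start (0) in the promoter windows of 8 genes, with genes that have more than 1 annotated start drawn once per start; green marks runs of 3 inverted units and orange pairs outside such runs. Runs of 3 lie before the start of Hspe1 and the second start of Hspd1 and after both starts of Hsph1, and the window of the first Hspd1 start and those of Dnajb1 are empty.

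No genotype difference was detectable in these transcripts with 3 or 4 hearts a group. By limma 0 of 9 genes were called between MuRF1 -/- and MuRF1 +/+ hearts on chow, where 0.0892% of all genes were called in either direction, and 2 genes had an unadjusted p under 0.05. At 3 weeks 0 of 9 were called (0.398% of all genes), with 0 at an unadjusted p under 0.05, and at 8 weeks 0 of 9 (0.0755% of all genes), with 1. Averaged over the diets 0 of 9 were called (0.192% of all genes), with 0 at an unadjusted p under 0.05. Of all 14567 genes, 463 on chow, 771 at 3 weeks, 3180 at 8 weeks and 895 over the diets had an unadjusted p under 0.05. The largest chow difference in a gene with an unadjusted p under 0.05 was that of Hsp90aa1, 0.50 ± 0.19 (95% interval 0.10 to 0.90), followed by Hspa8, 0.34 ± 0.15 (0.020 to 0.67). On chow MuRF1 -/- hearts averaged -1.15 ± 0.42 (SD, n = 3) for Hsp90aa1, against -1.64 ± 0.10 (SD, n = 3) in MuRF1 +/+ hearts, and the groups overlapped. At 8 weeks Hspb1 differed by -0.41 ± 0.18 (-0.78 to -0.038), with MuRF1 -/- hearts narrowly below all MuRF1 +/+ hearts (highest -0.348 against lowest -0.345). With array weights this difference was -0.35 and passed (limma adjusted p = 0.0206), where 28.1% of all genes were called. The intervals of the stress-inducible genes are wide: for Hspa1a they were -0.18 to 1.24 on chow and -0.28 to 1.13 at 8 weeks, and for Dnajb1 -0.41 to 0.85 and -0.20 to 1.05. At 3 weeks the interval of Hspa1a was -0.62 to 0.60.

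The response to fenofibrate differed between the genotypes in 0 of 9 genes at 3 weeks (0% of all genes called, and 0 of the 9 at an unadjusted p under 0.05). At 8 weeks it differed in 0 of 9 too (0.00686% of all genes, with 2432 of all 14567 genes and 2 of the 9 at an unadjusted p under 0.05). Those 2 were Hspb1 and Hsp90aa1, -0.65 ± 0.25 and -0.57 ± 0.27 (MuRF1 -/- minus MuRF1 +/+), and leaving out any 1 heart called neither. Array weights called Hspb1 and Hspa8 in the 8-week response difference, where 19.6% of all genes were called. Of the 11 calls in diet and time comparisons, those against chow were all in MuRF1 +/+ hearts, without a shown difference between the genotypes' responses. For the calls between 8 and 3 weeks, a difference between the genotypes was not tested.

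Other chaperones were taken from lists that were likewise chosen with results of these data known. Of 48 other cytosolic chaperones and co-chaperones, all tested, 1 rose and 7 fell against chow at 3 weeks in MuRF1 -/- hearts (of all genes, 14.4% rose and 12.1% fell) and 0 rose and 7 fell in MuRF1 +/+ hearts (12.0% and 12.3%). At 8 weeks 1 rose and 0 fell in MuRF1 -/- hearts (0.858% and 0.975% of all genes), and 2 rose and 9 fell in MuRF1 +/+ hearts (5.22% and 8.76%), where the list's median was -0.18 and that of all genes 0.028. The largest falls at 8 weeks in MuRF1 +/+ hearts were those of Hspb6 (-1.01) and Hspb3 (-0.92), small heat shock proteins of muscle, and of Fkbp4 (-0.95), a co-chaperone of Hsp90. Fkbp5, another Hsp90 co-chaperone, which glucocorticoids induce, rose (0.87). At 3 weeks the 4 largest changes were falls of the same genes in both genotypes: Hspb6 (-1.10 in MuRF1 -/- and -1.36 in MuRF1 +/+), the cardiac small heat shock protein Hspb7 (-0.98 and -0.83), Cct3, a subunit of the cytosolic chaperonin (-0.73 and -0.69), and Hspbp1, a nucleotide exchange factor of Hsp70 (-0.64 and -0.63). Between 8 and 3 weeks 7 rose and 3 fell in MuRF1 -/- hearts (13.5% and 18.0% of all genes) and 0 rose and 9 fell in MuRF1 +/+ hearts (7.91% and 9.69%). Hspb6 (1.13), Hspb7 (1.07) and Cct3 (0.67) were the largest rises in MuRF1 -/- hearts, and Hspb3 fell in both genotypes (-0.59 in MuRF1 -/- and -0.85 in MuRF1 +/+).

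Of 11 other mitochondrial chaperones and proteases, 0 were called by limma at 8 weeks against chow in either genotype, with 3 in MuRF1 -/- hearts and 6 in MuRF1 +/+ hearts at an unadjusted p under 0.05, and their median was 0.16 in MuRF1 -/- hearts and -0.30 in MuRF1 +/+ hearts. Of all 14567 genes, 1846 in MuRF1 -/- hearts and 4712 in MuRF1 +/+ hearts had such an unadjusted p there. At 3 weeks in MuRF1 -/- hearts 3 rose and 3 fell (14.4% and 12.1% of all genes). Hspa9, the mitochondrial Hsp70, rose there (0.57) and fell between 3 and 8 weeks in MuRF1 +/+ hearts (-0.90), in the same comparison in which Hspd1 fell. Trap1, the mitochondrial Hsp90, ran the other way in MuRF1 -/- hearts, lower at 3 weeks than on chow (-0.74) and higher at 8 than at 3 weeks (1.05). Of 4 heat shock factors and the factor-binding protein Hsbp1, 2 of the 5 were tested. Hsf1, the factor that drives the heat shock response, was higher at 3 weeks than on chow (0.51) and lower at 8 than at 3 weeks (-0.55) in MuRF1 -/- hearts, and was called in no MuRF1 +/+ comparison.

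The genes most like the members' mean over the 20 hearts (each member centred on its own mean) were the unnamed probe A_51_P182813 (r = 0.785), LOC641192 (0.760), Atp6v1h (0.748), Dnaja1 (0.739), an Hsp40 partner of Hsp70, and Nop2 (0.704). That mean ran from -0.29 to 0.35 in MuRF1 -/- chow hearts and from -0.30 to -0.077 in MuRF1 +/+ chow hearts. It lay between -0.056 and 0.098 in MuRF1 -/- hearts and between -0.077 and 0.16 in MuRF1 +/+ hearts at 3 weeks, and between -0.20 and 0.20 in MuRF1 -/- hearts and between -0.22 and 0.21 in MuRF1 +/+ hearts at 8 weeks. The groups overlapped throughout.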

How the data were processed

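RNA of 20 mouse hearts (Cy5) and of a pool of whole pups (Cy3) was hybridised to 2-colour Agilent arrays. Dyes were taken from the channel labels, since the protocol text names Cy3 for the heart label. Spot intensities were deposited as made by Agilent Feature Extraction 9.5.3.1, per the file headers, with its log10 ratios of red over green and its flags. The authors also deposited a matrix of log2 heart over reference, made by steps that the sources used here do not give. Its log2 scale and its direction follow from its correlation of 0.958 to 0.999 with ratios computed here. Its column medians lie between -0.0060 and 0.0093, and its centring otherwise stays unknown.

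Mean signals and median backgrounds were corrected with normexp (offset 50), after 7 spots of 1 MuRF1 -/- chow array whose background exceeded the signal by more than 50 were left out. Loess was applied within each array. Control spots had weight 0 there, and 105 to 423 outlier spots per array were set missing. Spots of a probe were averaged, the brightest probe stood for its gene, and genes above background in heart on at least 3 arrays were tested. Genes were named through RefSeq from accession or symbol, with the file's name otherwise. With limma 3.58.1 (R 4.3.3, package data.table, version 1.17.8) a model was fitted of 6 group means over all 20 arrays with a trended prior and 12 contrasts, adjusted over all 14567 genes by Benjamini-Hochberg at 0.05. Errors of differences are its standard errors. Single probes were adjusted over 20840 probes. The procedure was tested on simulated data. Nothing in the labels says whether hearts of a group share a litter, and p-values measure the spread between these hearts.

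With 3 or 4 arrays a group, precision is limited by their number. Alternatives were other background corrections, the Agilent ratios, the heart channel alone, other scalings, the deposited matrix, other filters, the mean over probes, array weights, fits without trend, of fewer groups or without single hearts, slide and replicate blocks, and a covariate of the Y-linked level. That level differed mainly between groups, with the widest spread within a group at 8 weeks in MuRF1 -/- hearts (Ddx3y -0.68 to 1.47). A call kept or lost with this covariate therefore cannot tell diet or time from the Y-linked difference. The members and lists were chosen with earlier results of these data known. Named genes are the members, the list genes called (the 4 largest where more were called), the single most alike gene of each member and the 5 most like their mean. No genome was used, and promoter letters were searched in RefSeq windows (GRCm38.p6), which cover no Hspa8 or Hsp90aa1 start.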

Additional observations from a re-analysis of the deposited data

Results flagged for a closer look

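Bag3 in replicate 4 of the 3-week MuRF1 -/- group had a log2 ratio of 1.44, far below the other 3 hearts of its group, of which the nearest was at 1.83 and the highest at 1.90. The gap to the nearest heart made up 0.864 of the group's range. That array also stood apart on the principal components. The 2 groups of 4 hearts gave 18 sets of values for the 9 genes, of which 1 was flagged, where chance flags about 1 in 20.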

How the results depend on the processing

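The numbers of chaperone genes called moved with the processing. For the 8-week MuRF1 +/+ hearts against chow (3 genes called) it was 1 with the heart channel alone, 6 with array weights, 0 with only the groups compared, 0 with a Y-linked covariate, and 1 to 5 without single hearts. Scaling between arrays lost Hspb1 there, and the mean over probes or leaving out the 3-week arrays lost Hspa8. The Agilent ratios and the deposited matrix lost both and gained Hspe1. Hspe1 was also gained without background correction, without trend, and with filters on all arrays of 1 group or on all 20 arrays. For the 3-week MuRF1 +/+ hearts against chow (2 called) it was 1 with the background fitted on all spots, the heart channel alone, scaling between arrays, no filter on dim probes, a filter on all 20 arrays, the mean over probes, and slide as a fixed or random block. It was 0 with the Agilent ratios, the deposited matrix and the Y-linked covariate, 4 with array weights, with only the groups compared and without the 2 arrays that stood apart, and 1 to 4 without single hearts. For the 3-week MuRF1 -/- hearts (0 called) it was 1 with the Agilent ratios, the heart channel alone and scaling between arrays, 2 with array weights, 3 without the 2 arrays that stood apart, and 0 to 1 without single hearts. Between 8 and 3 weeks it was 4 with the Agilent ratios and 5 with array weights in MuRF1 +/+ hearts (2 called), and 2 with the Y-linked covariate in MuRF1 -/- hearts (4 called). Moves by 1 gene are not listed for these 2 comparisons. With array weights 1 gene was called between the genotypes at 8 weeks and 2 in their 8-week responses (0 called each). The replicate numbers do not pair the hearts (correlations of same-numbered hearts -0.531 to 0.452, and in 0 of 9 comparisons was every pair over 0.1); with them as a block 1 gene was called at 3 weeks in MuRF1 +/+ hearts. The cause of these changes was not tested, except that a fit of only the groups compared has fewer samples and a filter changes the number of genes. No called difference changed sign. Of 3719 alternative values of the 97 differences not called, 66 passed and 168 changed sign without passing. The share of all genes called at 8 weeks in MuRF1 +/+ hearts, 14.0%, ran from 0.364% with only the groups compared to 47.4% with array weights. Heart probes above background, 34.0% to 51.9% of an array, limit what can be seen of dim genes, but all 9 tested probes were above it on every array.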

Other observations

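Chaperones of the endoplasmic reticulum fold secreted and membrane proteins. Of 16 of them, all tested, 1 rose at 3 weeks against chow in MuRF1 -/- hearts, Hsp90b1, the Hsp90 of this compartment (0.75), and 3 fell, where 14.4% of all genes rose and 12.1% fell. The 3 were Dnajb9 (-0.54), P4hb (-0.45) and Sdf2l1 (-0.34). At 3 weeks in MuRF1 +/+ hearts 8 rose and 0 fell, where 12.0% of all genes rose and 12.3% fell, with a median of 0.33 and an all-gene median of 0.010. The largest rises were those of Hsp90b1 (1.14), the compartment's Hsp70 Hspa5 (0.63), the lectin chaperone Calr (0.59) and the co-chaperone Dnajc3 (0.47). At 8 weeks 0 rose and 4 fell in MuRF1 -/- hearts (0.858% and 0.975% of all genes), with a median of -0.37, and 3 rose and 0 fell in MuRF1 +/+ hearts (5.22% and 8.76% of all genes), with a median of 0.21. Those that fell in MuRF1 -/- hearts were Hyou1 (-0.86), Pdia6 (-0.72), Sdf2l1 (-0.62) and Calr (-0.55), and those that rose in MuRF1 +/+ hearts were Dnajc3 (0.72), Creld2 (0.45) and Pdia3 (0.40). On chow itself, from which these differences start, MuRF1 -/- minus MuRF1 +/+ had a list median of 0.37, with 0 of 16 called by limma (0.0892% of all genes) and 11 at an unadjusted p under 0.05 (463 of all 14567 genes). The test of the difference between the genotypes' responses called 0 of the 16 by limma at either time, with 3 at 3 weeks and 13 at 8 weeks at an unadjusted p under 0.05 (352 and 2432 of all 14567 genes). The 8-week responses of the genotypes also differ in Y-linked transcripts, and the part of that was not tested. Between 8 and 3 weeks 1 rose and 8 fell in MuRF1 -/- hearts (13.5% and 18.0% of all genes) and 0 rose and 4 fell in MuRF1 +/+ hearts (7.91% and 9.69%), and Hsp90b1 fell in both (-1.39 in MuRF1 -/- and -0.62 in MuRF1 +/+).

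Immediate early genes, which respond within minutes to stress or handling, were tested for 18 of 21. At 8 weeks 0 were called by limma in MuRF1 -/- hearts (0.858% of all genes rose and 0.975% fell), with 4 at an unadjusted p under 0.05 (1846 of all 14567 genes). In MuRF1 +/+ hearts Nr4a1 (1.45) and Zfp36 (0.31) rose and Ier3 (-0.87) fell (5.22% and 8.76%). At 3 weeks 1 rose and 2 fell in MuRF1 -/- hearts (14.4% and 12.1%), and 2 rose and 2 fell in MuRF1 +/+ hearts (12.0% and 12.3%). Between 8 and 3 weeks 4 rose and 1 fell in MuRF1 -/- hearts (13.5% and 18.0%), and 2 rose and 0 fell in MuRF1 +/+ hearts (7.91% and 9.69%). Jund was lower at 3 weeks than on chow in both genotypes (-0.95 in MuRF1 -/- and -0.69 in MuRF1 +/+) and higher at 8 than at 3 weeks (0.82 and 1.47). These lists were chosen with results of these data known, and the genes named were called in the comparison given.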
